A study of Mus musculus with 12 samples.

Results

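The genes described here are those by which a fat cell is recognised and by which it makes fat: Adipoq, Lep, Fabp4, Retn, Cfd, Pparg, Lgals12, Thrsp, Scd1 and Ces1d. They were chosen by name, with earlier results of the same arrays known, among them the rise of Lgals12 and Ces1d with amphiregulin at day 4. Each was represented by the transcript cluster (the set of probes for 1 gene) that carried its symbol alone. Of the 10 genes, 9 had such a cluster, 1 each, among 19752 genes in all. Cfd had none and is not analysed here.

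RNA was taken from whole tibialis anterior (TA) muscle, the muscle along the shin, of C57BL/6 mice aged 8 weeks. All muscles had been injured on day 0 with cardiotoxin, a venom protein that destroys fibres and sets off their regeneration, and all mice received diphtheria toxin every other day. The 4 groups had 3 arrays each. Foxp3-DTR- mice were given amphiregulin (AREG) or PBS and their muscle was taken at day 4, while Foxp3-DTR+ mice were given AREG or PBS and their muscle was taken at day 8. The toxin kills regulatory T (Treg) cells only where they carry the diphtheria toxin receptor, which in Foxp3-DTR+ mice is driven by Foxp3. AREG, a growth factor of the epidermal growth factor family, or PBS, its vehicle, went into the muscle on day 0 and into the peritoneum every other day after that. Day and genotype changed together and cannot be told apart, and no uninjured muscle was analysed here. Whether every array had a mouse of its own is not stated, so the p-values measure the spread between these samples, which may be technical.

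Values are RMA intensities as the authors deposited them, a linear scale without a true zero, and differences are on the log2 scale. The median intensity of an array lay between 133.7 and 143.2. The interquartile range of log2 values lay between 2.19 and 2.72, with the smallest values in replicate 1 of AREG (2.19) and replicate 1 of PBS (2.37) at day 4. All 18 genes of a list of mature fast fibres were brighter than the median gene, as muscle tissue should be. Foxp3 was dim, with 95.6 to 107 in AREG day 8 arrays, 89.7 to 100.2 in PBS day 8 arrays, 91.4 to 106 in AREG day 4 arrays and 91.0 to 102 in PBS day 4 arrays, so the depletion of Treg cells could not be read from it.

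Fat cells store triglyceride and secrete hormones. The nuclear receptor PPAR gamma, encoded by Pparg, switches on most genes of the mature fat cell, together with factors of the C/EBP family. In skeletal muscle, fat cells lie between the fibres, and after injury they can arise from fibro-adipogenic progenitors, the mesenchymal cells of the tissue. Several of the genes are not private to fat cells: Fabp4 is also made by capillary endothelium and macrophages, Pparg by macrophages, and Scd1 and Thrsp by muscle fibres. In whole tissue, fewer fat cells and less RNA per fat cell cannot be told apart.

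The stretches upstream of Adipoq, Lep and Retn are shown because these adipokine genes lay higher together with AREG at day 4, and that of Thrsp because it followed another pattern. The sequences are from RefSeq on GRCm38.p6, and the promoter table used here matched 5 of the 9 genes. Each is the 250 bases before the annotated start, 5′ to 3′ on the gene's strand: Adipoq at chr16:23146286-23146535 (plus strand), Lep at chr6:29059971-29060220 (plus), Retn at chr8:3655520-3655769 (plus) and Thrsp at chr7:97417551-97417800 (minus). Capitals mark matches, on either strand, to TTGCNNAA (the core bound by C/EBP factors), CCAAT (bound by NF-Y), TATAAA (a core promoter element), CACGTG (an E-box, bound by helix-loop-helix factors such as ChREBP), AGGTCA (the half-site of many nuclear receptors) or AGGTCANAGGTCA (the direct repeat read by PPAR with RXR, which contains that half-site).
Adipoq: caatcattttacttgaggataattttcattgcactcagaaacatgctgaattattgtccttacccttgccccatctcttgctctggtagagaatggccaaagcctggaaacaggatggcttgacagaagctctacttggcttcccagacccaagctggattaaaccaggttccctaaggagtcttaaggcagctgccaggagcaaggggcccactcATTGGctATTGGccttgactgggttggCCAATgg
Lep: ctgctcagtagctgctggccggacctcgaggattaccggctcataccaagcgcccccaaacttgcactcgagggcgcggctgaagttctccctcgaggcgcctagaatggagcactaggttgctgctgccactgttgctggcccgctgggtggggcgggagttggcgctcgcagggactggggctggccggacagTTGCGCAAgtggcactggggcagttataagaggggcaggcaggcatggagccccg
Retn: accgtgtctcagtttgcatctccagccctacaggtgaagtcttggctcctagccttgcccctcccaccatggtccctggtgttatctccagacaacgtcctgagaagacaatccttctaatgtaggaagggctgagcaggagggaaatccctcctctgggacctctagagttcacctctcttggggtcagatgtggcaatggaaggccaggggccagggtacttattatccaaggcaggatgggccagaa
Thrsp: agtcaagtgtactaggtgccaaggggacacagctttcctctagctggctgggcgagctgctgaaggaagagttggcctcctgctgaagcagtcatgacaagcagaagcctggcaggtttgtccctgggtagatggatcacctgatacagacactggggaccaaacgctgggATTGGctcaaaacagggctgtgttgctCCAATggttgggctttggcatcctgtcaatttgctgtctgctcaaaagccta

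The Lep stretch held 1 C/EBP core, TTGCGCAA, which reads the same on both strands and ends 47 bases before the start. Of 32851 such stretches in the table, 9.56% held that core. The Adipoq stretch held CCAAT at 3 positions and that of Thrsp at 2, against 33.8% of all stretches with at least 1. The Retn stretch matched none of the 6 patterns. Pparg had 3 annotated starts, of which the first and second had 1 half-site each (14% of all stretches held one) and the third 2 C/EBP cores. The second also held CCAAT at 1 position and TATAAA at 1 (12.4% of all stretches held TATAAA), and the third held CCAAT at 2. The single cluster of Pparg does not separate transcripts by start. The full direct repeat was in none of the stretches of the measured genes and in 0.0335% of all. These matches describe letters in a window, not bound sites.

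The first comparison was AREG against PBS at day 4, with Treg cells present. Group means were higher with AREG for 8 of the 9 genes, the exception being Pparg. The median log2 difference of the 9 was 0.66, against 0.04 for all 19752 genes. Lgals12 and Ces1d passed limma at an adjusted p of 0.05, both higher, which is 2 of 9 against a background of 0.790% of all genes called higher (2.90% in either direction). The members had been picked with this contrast known, so these counts describe them and nothing is read from them. The calls were lost without single arrays: 0 of the 9 passed without AREG replicate 1 or 3 or PBS replicate 1 or 2 of day 4. In those fits 15, 9, 228 and 9 of all 19752 genes passed in turn, against 573 with all arrays. The log2 differences there were 0.84 to 1.03 for Lgals12 and 0.93 to 1.23 for Ces1d. Over 20 alternatives Lgals12 passed in 16 and Ces1d in 9. Groups did not overlap for 5 genes, Lep, Retn, Lgals12, Fabp4 and Ces1d, all higher, against 10.2% of all genes. With the replicate number as a block, 7 of the 9 passed, all but Pparg and Thrsp, against 1.54% of all genes called higher in that fit.

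Among the secreted products, Adipoq encodes adiponectin, a hormone of mature fat cells that raises insulin sensitivity. Its intensity was 200.0, 249 and 336 in AREG day 4 arrays, against 151, 150.2 and 225 in PBS day 4 arrays. The groups overlapped only through PBS replicate 3, which lay above AREG replicate 1. The log2 difference was 0.57 ± 0.24 (SE from limma, n = 3 per group), 1.49-fold.

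Lep encodes leptin, the satiety hormone of fat cells, and its level lay at the 29.9th percentile of all genes. It had 82.4, 92.3 and 148 in AREG day 4 arrays, against 70.0, 53.3 and 69.7 in PBS day 4 arrays. All AREG arrays lay above all PBS arrays, and AREG replicate 3 stood well above the other two. The log2 difference was 0.71 ± 0.20 (SE, n = 3 per group), 1.63-fold.

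Retn encodes resistin, a hormone that in mice comes mainly from fat cells. It had 458, 547 and 631 in AREG day 4 arrays, against 339, 219.6 and 429 in PBS day 4 arrays, without overlap. The log2 difference was 0.77 ± 0.23 (SE, n = 3 per group), 1.70-fold. Its relatives, looked up after the values had been seen, had day 4 log2 differences of 0.19 ± 0.27 for Retnla, a product of alternatively activated macrophages, -0.40 ± 0.17 for Retnlg, a neutrophil gene, and -0.07 ± 0.16 for Retnlb.

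Pparg did not share the direction of the genes it is known to switch on. Its intensity was 204, 267 and 295 in AREG day 4 arrays, against 254, 277 and 331 in PBS day 4 arrays. The groups overlapped, and the log2 difference was -0.18 ± 0.14 (95% interval -0.48 to 0.13, n = 3 per group). In a fit with array weights its log2 difference was 0.019 and so of the other sign.

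Lgals12 encodes galectin-12, a protein of lipid droplets that is largely confined to fat cells. Its level lay at the 50.3rd percentile of all genes. Lgals12 had 179, 207 and 235 in AREG day 4 arrays, against 94.9, 95.3 and 139 in PBS day 4 arrays. The lowest AREG array lay well above the highest PBS array, and the log2 difference was 0.93 ± 0.19 (SE, n = 3 per group), 1.91-fold.

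Ces1d encodes a carboxylesterase that hydrolyses stored triglyceride in fat cells and liver. It had 244, 348 and 314 in AREG day 4 arrays, against 115, 122 and 203 in PBS day 4 arrays. The groups did not overlap, and the log2 difference of 1.08 ± 0.28 (SE, n = 3 per group), 2.11-fold, was the largest of the 9 genes. Near-identical relatives could share signal with it. Of these, Ces1a, Ces1b, Ces1c, Ces1e, Ces1f and Ces1g had levels at the 4.41st to 42.6th percentile and day 4 log2 differences between -0.06 for Ces1b and 0.27 for Ces1f.

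Fabp4 encodes the fatty acid carrier of fat cells. It had 1591, 1678 and 1868 in AREG day 4 arrays, against 1036, 1129 and 1553 in PBS day 4 arrays. The groups did not overlap, by a narrow margin between AREG replicate 1 and PBS replicate 3. The log2 difference was 0.49 ± 0.14 (SE, n = 3 per group), 1.40-fold. The related carriers differed in direction, with a log2 difference of 0.33 ± 0.13 for Fabp3, the carrier of muscle, and -1.20 ± 0.21 for Fabp5, a carrier of macrophages.

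Scd1 encodes the desaturase that makes oleate for storage in triglyceride. It had 2229.9, 2015 and 3102 in AREG day 4 arrays, against 1441, 1198 and 2045 in PBS day 4 arrays. The groups overlapped between AREG replicate 2 and PBS replicate 3 only, and the log2 difference was 0.66 ± 0.22 (SE, n = 3 per group), 1.58-fold. Scd2, the form made by most tissues, had a log2 difference of the other sign, -0.60 ± 0.18 (adjusted p = 0.0798 by limma, 0.0401 with the replicate block), while the dim Scd3 and Scd4 had -0.02 ± 0.12 and 0.08 ± 0.12.

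Thrsp encodes Spot 14, a nuclear protein induced by thyroid hormone and feeding that promotes fatty acid synthesis. It had 187, 170.2 and 232 in AREG day 4 arrays, against 175, 141 and 155 in PBS day 4 arrays. The groups overlapped, and its log2 difference of 0.32 ± 0.16 (SE, n = 3 per group) was the smallest of the positive ones.

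**Figure D1:**
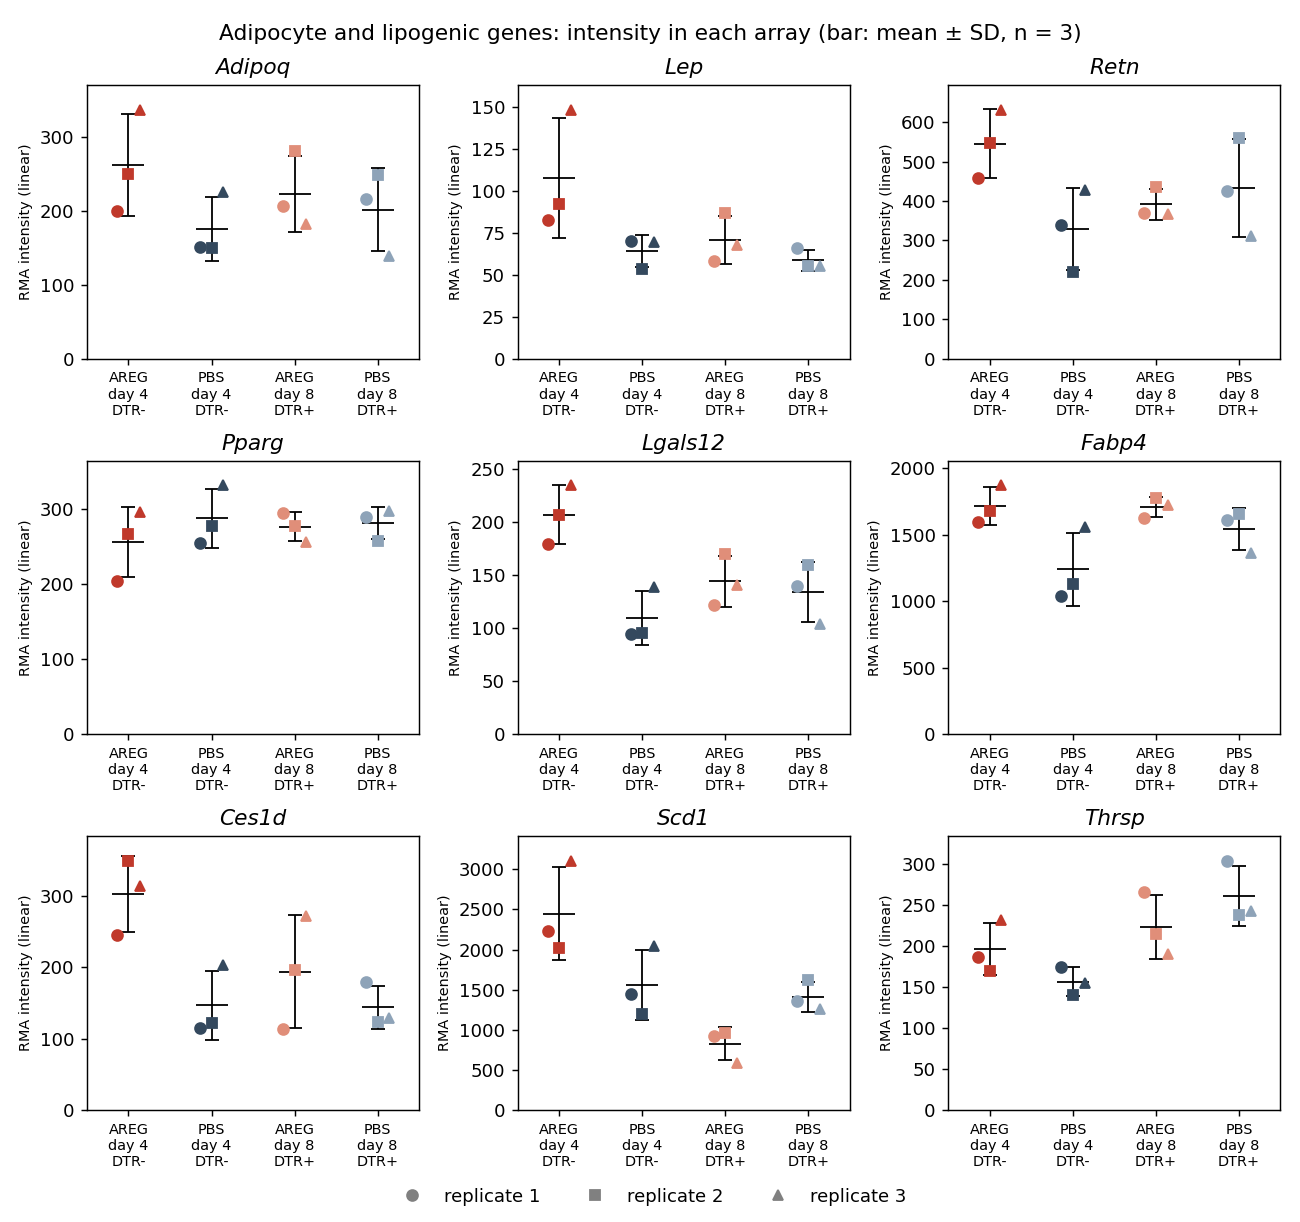
Intensity of the 9 genes in each of the 12 arrays, on a linear axis from 0, with the mean and SD of each group of 3; marker shapes give the replicate number. At day 4 the AREG arrays of Lgals12 lie between 179 and 235, above the PBS arrays at 94.9 to 139, and at day 8 the AREG arrays of Scd1 lie between 588 and 963, below the PBS arrays at 1254 to 1618.

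Genes of other cell types were counted in the same day 4 comparison, and those of macrophages held most of the calls. Of 18 macrophage genes 11 fell and none rose (limma, adjusted p under 0.05; 12 fell with the replicate block), and their summed intensity was 8952 to 11941 in AREG arrays, against 19464 to 25514 in PBS arrays. None of 16 endothelial genes passed limma (1 rose with the replicate block); their sum was 8046 to 9704 in AREG arrays, against 6593 to 7732 in PBS arrays, and the median log2 difference was 0.27. Of 18 mature fast fibre genes 1 rose, Tcap, with sums of 162135 to 176098 in AREG arrays, against 146198 to 160063 in PBS arrays. None of 12 neutrophil genes passed, and all 12 lay below the median level. Over all genes 0.790% were called higher and 2.90% in either direction by limma. The part of these differences in the values of the fat genes was not tested.

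The neighbouring fat genes were counted on lists that leave the 10 genes out. Of 29 other adipocyte identity genes 27 were measured, 25 of them with higher means with AREG at day 4. Their median log2 difference was 0.41, against 0.04 for all genes. Higher means were not particular to this list. They were also found for 18 of 18 mature fast fibre genes (median 0.20) and 14 of 16 endothelial genes (0.27), but for 1 of 18 macrophage genes. Cidec and Plin1 rose, against 0.790% of all genes called higher, and none fell. Cidec, which fuses lipid droplets, had 233, 217 and 322 in AREG day 4 arrays, against 158, 142 and 159 in PBS day 4 arrays, a log2 difference of 0.73 ± 0.16 (adjusted p = 0.0334, limma). Plin1, which coats the droplets of fat cells, had 222, 210.5 and 291 in AREG day 4 arrays, against 137, 135 and 193.5 in PBS day 4 arrays, a log2 difference of 0.64 ± 0.16 (adjusted p = 0.0497, limma). With the replicate block 8 of the 27 rose, against 1.54% of all genes called higher in that fit. Those gained were Plin4, another droplet coat protein (log2 difference 0.80), Aqp7, the glycerol channel (0.64), and Orm1 (0.51). Also gained were Slc2a4, the insulin-regulated glucose transporter (0.50), Nnat (0.49) and Lipe, hormone-sensitive lipase (0.44). Cebpa, a partner of Pparg, was with Aoc3 one of the 2 that had a lower mean, with a log2 difference of -0.28 ± 0.13.

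All 24 other lipogenic genes were measured, with a median log2 difference of 0.12 at day 4. By limma 3 rose, against 0.790% of all genes called higher, and none fell. Dgat2, which adds the last fatty acid to triglyceride, had 919, 1027 and 1077 in AREG day 4 arrays, against 538, 549 and 689.9 in PBS day 4 arrays (log2 difference 0.77 ± 0.17, adjusted p = 0.0334, limma). Mlxipl, the sugar-responsive lipogenic factor ChREBP, had 559.6, 558 and 612 in AREG day 4 arrays, against 380.1, 311 and 443 in PBS day 4 arrays (log2 difference 0.62 ± 0.15, adjusted p = 0.0371). Gpam, which starts glycerolipid synthesis, had 1438, 1650.2 and 1583 in AREG day 4 arrays, against 1169.6, 1095 and 1153 in PBS day 4 arrays (log2 difference 0.45 ± 0.11, adjusted p = 0.0398). With the replicate block 3 rose, against 1.54% of all genes called higher in that fit, and 1 fell, Scd2. These lists, too, were chosen with results of the day 4 arrays known.

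Of 22 adipogenic regulators 21 were measured and none passed at day 4 by limma, and 1 rose with the replicate block. The smallest p belonged to Ppara, the fatty acid oxidation receptor (0.60 ± 0.18, adjusted p = 0.0798, and 0.0402 with the replicate block), and Rxra, the partner of PPARs (0.37 ± 0.13, adjusted p = 0.133). Of 10 genes for adipokine receptors and their partners 9 were measured. In that list C3ar1, the receptor of the complement fragment C3a and a macrophage gene, fell by 1.36 ± 0.31, and Cap1, an actin regulator described as a resistin receptor in human monocytes, fell by 0.75 ± 0.17 (adjusted p = 0.0338 and 0.0324, limma), so that 2 of 9 were called, against 2.90% of all genes. Of 8 brown fat genes 1 rose, Ppargc1a (0.65 ± 0.11), a coactivator that fibres also express. Of 16 fibro-adipogenic progenitor genes 15 were measured and 1 rose, Gsn (0.48 ± 0.11), with a median log2 difference of -0.06. Over all genes 0.790% were called higher. The counts of called genes in the receptor, brown fat, progenitor and fibre lists were the same with the replicate block.

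**Figure D2:**
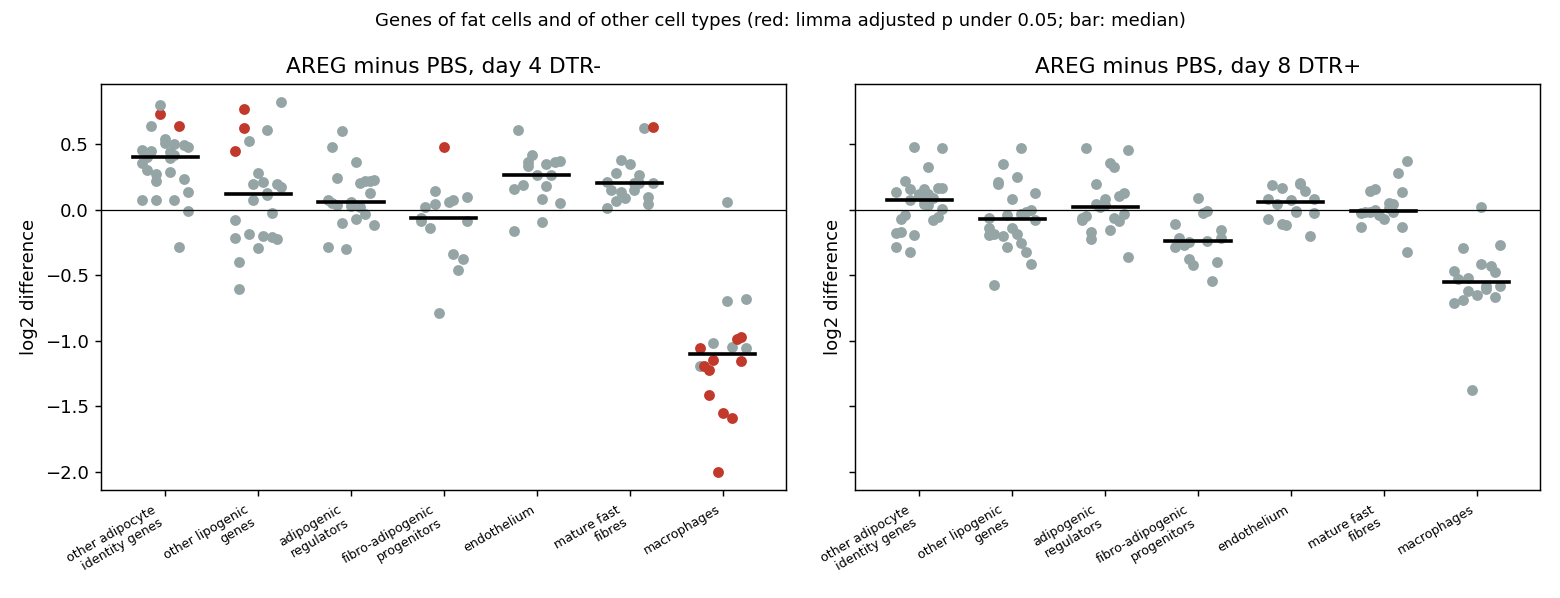
Log2 differences with AREG against PBS for single genes of 7 lists at day 4 (left) and day 8 (right); each point is a gene, red points passed limma over all genes, and black bars are medians. At day 4 the other adipocyte identity genes have a median of 0.41 and the macrophage genes one of -1.10, and at day 8 the medians are 0.07 and -0.55.

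The second comparison was AREG against PBS at day 8 in mice depleted of Treg cells. None of the 9 genes passed limma, against a background of 0.00506% (1 gene), and 1 of them, Scd1, had an unadjusted p under 0.05, against 7.62% of all genes. Means were higher with AREG for 5 genes and lower for 4, and the median log2 difference was 0.11, against 0.01 for all genes. Groups did not overlap for 1 gene, Scd1, which lay lower, against 7.14% of all genes.

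Scd1 at day 8 had 926, 963 and 588 in AREG arrays, against 1354, 1618 and 1254 in PBS arrays. Every AREG array lay below every PBS array, the reverse of the order of means at day 4. The log2 difference was -0.80 ± 0.22 (95% interval -1.27 to -0.33, adjusted p = 0.599, limma, n = 3 per group), 1.74-fold lower, which did not pass. Scd2 had a log2 difference of -0.58 ± 0.18 at day 8 (adjusted p = 0.599) and so a negative sign at both days.

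The adipokines overlapped between the day 8 groups. Adipoq had 206, 280.3 and 182 in AREG day 8 arrays, against 216, 248 and 139 in PBS day 8 arrays, a log2 difference of 0.16 ± 0.24 (95% interval -0.34 to 0.67). Lep had 58.4, 86.7 and 67.8 in AREG day 8 arrays, against 66.0, 55.1 and 55.1 in PBS day 8 arrays (0.26 ± 0.20). Retn had 371, 436 and 368 in AREG day 8 arrays, against 426, 559.8 and 312 in PBS day 8 arrays (-0.11 ± 0.23). For Adipoq and Retn the SD of log2 values in each group was wider than the gap between the means. For Lep that held for the AREG arrays (SD 0.29) but not for the PBS arrays (SD 0.15).

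The remaining genes also overlapped at day 8. Lgals12 had 122, 169.8 and 141 in AREG arrays, against 139.7, 159.8 and 104 in PBS arrays (log2 difference 0.11 ± 0.19, 95% interval -0.29 to 0.51). Ces1d varied most, with 113, 196 and 271 in AREG day 8 arrays, against 179, 124 and 128 in PBS day 8 arrays (0.36 ± 0.28). Fabp4 (0.15 ± 0.14), Pparg (-0.03 ± 0.14) and Thrsp (-0.23 ± 0.16) completed the set. None of the 27 other adipocyte identity genes and none of the 24 lipogenic genes passed limma at day 8, with median log2 differences of 0.07 and -0.07. In the adipocyte list the smallest p belonged to Adig (0.33 ± 0.13) and in the lipogenic list to Scd2.

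Whether the AREG effect differed between the settings was tested as the effect at day 8 minus the effect at day 4. None of the 9 genes passed limma (0 of all genes, background 0%), while 4 of the 9 had an unadjusted p under 0.05, against 5.87% of all genes. Since it contains the day 4 contrast, this difference is not independent of how the genes were picked. For Scd1 it was -1.46 ± 0.31 (95% interval -2.12 to -0.79, adjusted p = 0.528, limma). Retn had -0.88 ± 0.32, Lgals12 -0.82 ± 0.26 and Thrsp -0.55 ± 0.22 (adjusted p = 0.764, 0.634 and 0.799). With array weights Scd1, Retn, Lgals12, Thrsp and Ces1d passed, 5 of the 9, in a fit in which 2232 of all 19752 genes passed.

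**Figure D3:**
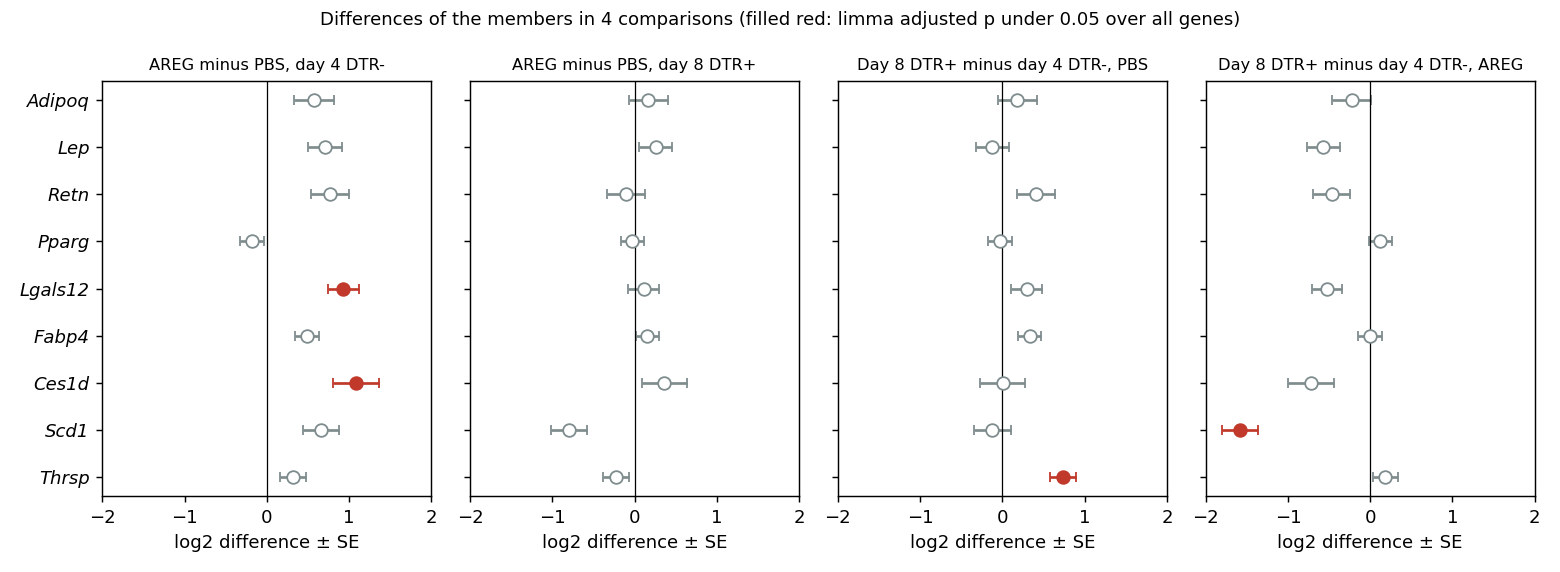
Log2 differences of the 9 genes with the SE from limma in 4 comparisons; filled red points passed an adjusted p of 0.05 over all 19752 genes. The filled points are Lgals12 and Ces1d for AREG at day 4, Thrsp between the PBS groups and Scd1 between the AREG groups.

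The third comparison set PBS muscle at day 8 in Treg-depleted mice against PBS muscle at day 4. Of the 9 genes 1 rose, Thrsp, against a background of 1.19% of all genes called higher and 2.34% called in all. Thrsp had 304, 238 and 243 in PBS day 8 arrays, against 175, 141 and 155 in PBS day 4 arrays. The groups did not overlap, as for 9.17% of all genes in that direction, and the log2 difference was 0.73 ± 0.16 (adjusted p = 0.0197, limma, n = 3 per group), 1.66-fold. The call was lost without PBS replicate 2 or 3 of day 4 and without PBS replicate 1 or 3 of day 8. There the log2 difference ranged from 0.62 to 0.78 and the adjusted p from 0.0503 to 0.132 (limma). In those fits 209, 432, 267 and 241 of all genes passed in turn, against 463 with all arrays.

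The other 8 genes did not pass between the PBS groups, and their log2 differences lay between -0.13 for Lep and 0.41 for Retn. Fabp4 had 1607, 1654 and 1359 in PBS day 8 arrays, against 1036, 1129 and 1553 in PBS day 4 arrays (0.33 ± 0.14, adjusted p = 0.338). Ces1d had almost equal means, with a log2 difference of 0.003 ± 0.28 (95% interval -0.59 to 0.59). Among the lists, Apol6 rose, the 1 of 27 adipocyte identity genes called (0.79 ± 0.17, adjusted p = 0.0197, limma). In the regulator list, with 21 genes measured, Gata3 rose (0.68 ± 0.16, adjusted p = 0.0326, limma). There Klf5 fell by 0.46 ± 0.11 (adjusted p = 0.0481, limma, and 0.0571 with the replicate block). Other lists had calls as well. Trem2 of 18 macrophage genes (-1.05 ± 0.22) and Mmp8 of 12 neutrophil genes (-0.60 ± 0.13) fell. Myh2 of 18 fibre genes (0.56 ± 0.12) and Ppargc1a of 8 brown fat genes (0.49 ± 0.11) rose. Over all genes 1.19% were called higher and 2.34% in either direction. Dlk1, an inhibitor of fat cell differentiation, did not pass (0.52 ± 0.13, adjusted p = 0.0526, limma). It passed only with the replicate block (adjusted p = 0.0271, limma). The values did not bear out a pairing of PBS arrays across days, with correlations of deviations of -0.117, 0.0589 and -0.0683. Gata3 blocks fat cell differentiation and is also a T cell factor, and Klf5 promotes fat cell formation. None of the lipogenic genes passed.

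The fourth comparison set AREG muscle at day 8 in Treg-depleted mice against AREG muscle at day 4. Scd1 fell, the 1 of 9 genes that passed, against a background of 0.192% of all genes called lower and 0.719% called in all. It had 926, 963 and 588 in AREG day 8 arrays, against 2229.9, 2015 and 3102 in AREG day 4 arrays. The highest day 8 array did not reach the lowest day 4 array, and the log2 difference was -1.58 ± 0.22 (adjusted p = 0.00196, limma, n = 3 per group), 2.98-fold lower. The call held in all 20 alternatives, with adjusted p from 7.58e-07 to 0.0166 and log2 differences from -1.71 to -1.35. The day 4 arrays of this comparison are also those of the first one, and its day 8 arrays those of the second.

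Retn and Lgals12 also lay lower in every AREG day 8 array than in every AREG day 4 array, making 3 of 9 genes without overlap in that direction, against 8.97% of all genes. Neither passed, with log2 differences of -0.47 ± 0.23 (adjusted p = 0.507) and -0.53 ± 0.19 (adjusted p = 0.302, limma). Ces1d had -0.72 ± 0.28, Lep -0.57 ± 0.20 and Fabp4 -0.001 ± 0.14. The median of the 9 was -0.47, against -0.06 for all genes. No gene of the adipocyte identity or lipogenic lists passed here, the nearest being Rbp4, the retinol carrier (-0.64 ± 0.15, adjusted p = 0.0658), and Gpd1, which supplies the glycerol backbone (-0.63 ± 0.14, adjusted p = 0.0693).

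In the order of the group means, AREG at day 4 was highest for 7 of the 9 genes and PBS at day 4 lowest for 6. The exceptions at the top were Pparg, highest in PBS at day 4 (287 ± 39.3, mean ± SD, n = 3) with all 4 groups between 255 and 287, and Thrsp, highest in PBS at day 8 (262 ± 36.9). For Adipoq, Lgals12, Fabp4 and, on the log2 scale, Ces1d the order was AREG day 4, AREG day 8, PBS day 8 and PBS day 4. Neighbours in that order differed by less than their spread for Adipoq, with 262 ± 68.9, 223 ± 51.3, 201 ± 56.1 and 175 ± 43.1 in turn. For Fabp4 the AREG groups were nearly equal, at 1712 ± 142 on day 4 and 1708 ± 75.2 on day 8.

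Some arrays were the highest or the lowest of their group for most of the 9 genes, while others were mixed. AREG replicate 3 at day 4 was the highest of its group for 8 of the 9 genes, and AREG replicate 1 the lowest for 7. PBS replicate 3 at day 4 was the highest for 7 and lowest for 0. At day 8, AREG replicate 2 was the highest for 6 of 9 and PBS replicate 3 the lowest for 5. PBS replicate 2 of day 8 was the highest for 5 and the lowest for 4. AREG replicate 1 of day 8 and PBS replicate 1 of day 4 were each the highest for 2 and the lowest for 4. On average over the 9 genes, arrays lay between -0.23 (PBS replicate 2 of day 4) and 0.31 (PBS replicate 3 of day 4) from their group's mean on the log2 scale. This spread between arrays of a group is of the size of many of the differences above.

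**Figure D4:**
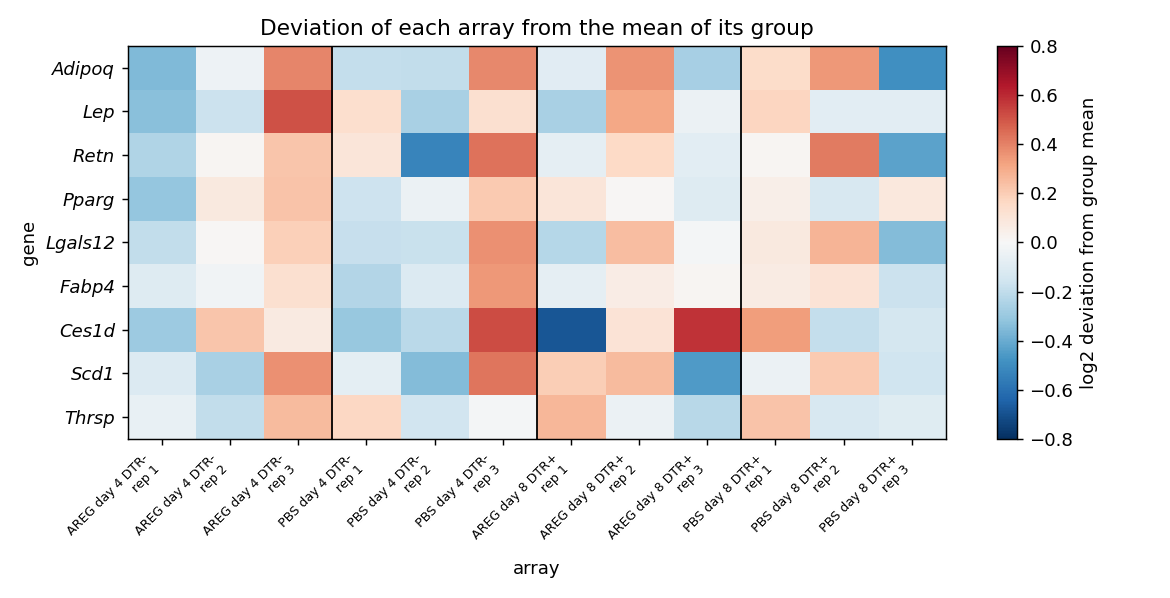
Log2 deviation of each of the 12 arrays (columns) from the mean of its group of 3 for the 9 genes (rows), from blue (below) to red (above); black lines separate the groups. Replicate 3 of AREG and of PBS at day 4 is above its group's mean in most rows, and Ces1d departs from the other rows in the AREG day 8 arrays.

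The genes did not all vary together. Over the deviations of the 12 arrays from their group means, Adipoq, Retn, Lgals12 and Fabp4 correlated with each other at Pearson's r of 0.726 to 0.928, and over the log2 values themselves at 0.755 to 0.894. These 4 genes were singled out after the values had been seen. Over all 36 pairs of genes the r of deviations had a median of 0.51 and ranged from -0.317 (Thrsp and Ces1d) to 0.928 (Adipoq and Lgals12). Scd1 followed Adipoq within groups (0.783) more than over the log2 values (0.436). Pparg had r of -0.158 to 0.15 with the other genes over the log2 values, and 0.275 to 0.531 over the deviations. The arrays share RNA quality and normalisation across genes, and these correlations are descriptions.

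Among 9490 genes above the median level, those most like the mean pattern of the 8 members above that level (without Lep) over the 12 arrays were Phtf2 (Pearson's r 0.971), Khdrbs3 (0.941), Atpaf1 (0.936), Klhl31 (0.936), Hint3 (0.934), Ric8b (0.927), Asb18 (0.924) and Mmgt1 (0.922). Their day 4 log2 differences with AREG lay between 0.31 and 0.69 and those at day 8 between -0.13 and 0.03. Over the deviations from group means the nearest were Mmgt1 (0.963), Dlc1 (0.955), Clock (0.95), Phyh (0.943), Ptpn4 (0.942), Phtf2 (0.937), Decr1 (0.935) and Arhgap20 (0.932). None of these genes was on the lists of fat cell genes, and Phtf2 and Mmgt1 were in both sets of 8. Lgals12 counted among the 8 members by a narrow margin (50.3rd percentile). Its mean log2 value was 7.68 in AREG day 4 arrays and 6.75 in PBS day 4 arrays. The likeness is therefore a description of a pattern that the picked genes themselves set.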

How the data were processed

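Per the labels and design text, RNA from whole TA muscle was hybridised to 12 Affymetrix whole-transcript mouse arrays, 3 in each of 4 groups. Per the submitters' processing notes, Affymetrix Power Tools with RMA made the values. The deposited table holds intensity on a linear scale (4.65 to 21512) for 24922 transcript clusters. No version or build is stated. RMA corrects background, equalises arrays and compresses differences of dim genes.

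Values were taken to log2 with a pseudocount of 0 and no filter. Symbols came from GEO's platform annotation: 21425 clusters had 1 symbol, 1399 several and 2098 none. Where a gene had several clusters, the one with the highest mean over the 12 arrays stood for it, leaving 19752 genes. All 9 measured members matched the RefSeq table. Genes were fitted with limma 3.58.1 in R 4.3.3 (4 group means, 1 spread, 8 residual and 7.1 prior degrees of freedom, Benjamini-Hochberg over all genes, two-sided), after a test on simulated data. With 3 against 3 arrays the smallest exact permutation p is 0.1, so no such test was used.

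The members, lists, tests and alternatives were chosen with earlier results of these data known. All members were named. From each list, genes called (at most 4) or else those with the smallest p (at most 2) were candidates, and Cebpa, Aoc3, genes called with the block alone and the relatives of members were named after their values were seen. Genes of like pattern were the 8 with the highest correlation, without ribosomal, predicted, Rik and olfactory receptor genes. A list of red blood cell genes had 2 of 8 genes measured and 0 called in any comparison.

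At day 4 the deviations of AREG and PBS arrays of the same replicate number correlated at 0.558, 0.201 and 0.511, all above 0.1, and at day 8 at -0.198, 0.123 and -0.00332. The numbers were therefore taken to pair arrays at day 4 only, on the values and not on the labels, and the result with the replicate block stands beside the day 4 counts. The fit with the block gave the day 8 arrays blocks as well. Alternatives were a pseudocount of 32, quantile normalisation, weighting of arrays, a fit of the compared groups alone, the mean of a gene's clusters, leaving out genes below the median level, trended and robust eBayes, the replicate block and leaving out each array.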

Additional observations from a re-analysis of the deposited data

How the results depend on the processing

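For AREG against PBS at day 4, 2 of the 9 genes passed. With the replicate block 7 passed, with array weights 8, with trend and robust eBayes 1 and with a pseudocount of 32 it was 1. Leaving out 1 array gave 0 to 4: none without AREG replicate 1 or 3 or PBS replicate 1 or 2, 4 without PBS replicate 3, and, through the shared spread, 4 without day 8 AREG replicate 3. Without day 4 AREG replicate 2, or any of day 8 AREG replicate 2 and the 3 day 8 PBS arrays, 1 passed. With array weights 5 passed for the difference of the AREG effects and 5 between the AREG groups, where 2232 and 6676 of all 19752 genes passed, and where leaving out arrays gave 0 and 1 of the 9. Those weights lay mainly on AREG replicate 3 of day 4 (5.52) and AREG replicate 2 of day 8 (7.43). Between the PBS groups leaving out arrays gave 0 to 1. At day 8 none passed in any alternative. The cause of these changes was not tested. The replicate block changed no call of the 9 genes outside the day 4 comparison. Over all 19752 genes 573 passed at day 4 in the main fit. With the replicate block it was 914, with array weights 5305, with trend and robust eBayes 527 and with the pseudocount 358. Without AREG replicate 1 or 3 of day 4 it was 15 and 9, and without PBS replicate 1, 2 or 3 of day 4 it was 228, 9 and 418. Without day 8 AREG replicate 3 it was 1336. In the fits without 1 array in which 1 of the 9 genes passed, it was 302 to 471.

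Of 886 values of single genes under an alternative, 818 kept their direction and side of the threshold, 25 gained the call, 19 lost it and 24 changed sign, none of them a called value. Array weights turned Pparg to 0.019 for AREG at day 4, -0.056 between the AREG groups and -0.052 for the difference of effects, Retn to 0.080 at day 8 and Thrsp to -0.027 between the AREG groups. Quantile normalisation turned Pparg at day 8 to 0.057, and the pseudocount turned Ces1d between the PBS groups to -0.0019. Leaving out 1 array gave ranges that include 0. At day 8 these were -0.081 to 0.34 for Adipoq, -0.063 to 0.25 for Lgals12, -0.090 to 0.026 for Pparg and -0.32 to 0.099 for Retn. Between the PBS groups they were -0.17 to 0.26 for Ces1d, -0.11 to 0.080 for Pparg and -0.29 to 0.092 for Scd1, and between the AREG groups -0.052 to 0.063 for Fabp4 and -0.028 to 0.24 for Pparg. For the difference of effects Pparg ranged from -0.0017 to 0.27. With 3 arrays per group and 1 cluster per gene, signal over background could not be judged, since the deposited table holds no detection values.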
